A study of Mus musculus with 9 samples.

Results

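The keratins of stratified squamous epithelium build the intermediate filaments of the esophageal lining, and 10 of them were followed here through mouse esophageal organoids of 3 genotypes. The members were chosen by gene symbol from the union of 3 deposited tables of differentially expressed genes: Krt4, Krt13, Krt78, Krt5, Krt14, Krt15, Krt6a, Krt6b, Krt16 and Krt17. They are 10 of the 8742 genes listed in at least 1 table. The series is a bulk RNA-seq experiment on organoids, which are small 3-dimensional cultures of epithelial cells, harvested on day 7 after plating. Wild-type organoids (WT), organoids labelled Trp53;Notch1 KO (PN) and organoids labelled Trp53;Cdkn2a;Notch1 KO (PCN) gave 3 libraries each, all untreated, of esophageal epithelial origin and from total RNA. PN and PCN both carry the Trp53 and Notch1 knockouts, so the label of PCN differs from that of PN by Cdkn2a alone. No label states the mouse strain or age, how the genes were edited, or how many clones or animals stand behind a line. Nor is it stated whether replicates were grown separately, so p-values reflect the spread of these libraries, which may be technical.

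Keratin filaments are obligate pairs of a type I (acidic) and a type II (basic) chain. In stratified epithelia, Krt5 (type II) and Krt14 (type I) pair in the basal layer, where Krt15 (type I) is also made and marks a long-lived progenitor population of the mouse esophagus. Cells that leave the basal layer of the esophagus switch to Krt4 (type II) and Krt13 (type I), and Krt6a, Krt6b (type II), Krt16 and Krt17 (type I) are induced by wounding, stress and hyperproliferation.

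The recovered library totals ran from 14695420 to 20198041 counts, lowest in WT (14695420 to 15093994) and higher in PN (16857744 to 18912526) and PCN (17422590 to 20198041). Trp53 had a CPM, its share of the library total scaled to 1e6 counts, of 120 ± 1.66 (SD, n = 3) in WT, with 2.61 ± 0.546 for PN and 3.07 ± 0.775 for PCN. Notch1 was at 244 ± 31.9, 148 ± 6.78 and 71.3 ± 5.26 CPM. Cdkn2a went against the label of PCN, with 8.996 ± 2.17 CPM in WT but 22.1 ± 0.600 for PN and 65.2 ± 4.35 for PCN. A count over a whole gene need not show an edit in a part of it, and the edited part is not given, so PCN stands below for the libraries labelled so, and every direction in PCN rests on that label. All 7 epithelial markers checked had values, Sox2 in WT and PCN alone. Among them were Cdh1 (E-cadherin, 813 ± 68.4, 473 ± 27.8 and 432 ± 17.4 CPM), Trp63, the squamous master regulator p63 (486 ± 22.8, 698 ± 36.2 and 649 ± 39.7 CPM), Itga6 (909 ± 54.5, 626 ± 12.6 and 815 ± 23.7 CPM) and Pax9 (158 ± 9.58, 95.1 ± 1.65 and 57.3 ± 4.63 CPM). None of 8 fibroblast markers was listed, but only genes called as different are listed, so a marker without a listing need not be absent. Of 8 leukocyte markers Cd68 alone was listed, at 107 ± 12.8, 25.2 ± 1.61 and 16.1 ± 0.970 CPM, and of 6 endothelial markers Esam alone, at 9.24 ± 3.19, 5.14 ± 0.741 and 5.14 ± 0.782 CPM. Both were higher in WT, as the suprabasal keratins were, and their part in the keratin results was not tested.

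The tables hold only genes the authors called, so Krt5, listed for PCN against PN alone, has no WT value, and its level in WT was not analysed here. The other 9 keratins have counts in all 9 libraries.

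Related keratins share sequence, which bears on how their reads are told apart. All coordinates are on mouse build GRCm38 and all 10 genes lie on the minus strand. The coding sequences of Krt6a (ENSMUSG00000058354) and Krt6b (ENSMUSG00000023041) were 97.6% identical in GENCODE M21, and 60.4% of the 50-base windows of Krt6a occurred unchanged in Krt6b. Their longest common run was 280 bases in exon 1, at coding bases 34 to 313 of both genes (Krt6a chr15:101693936-101694215, Krt6b chr15:101679911-101680190). A read that falls wholly inside it cannot be assigned to either gene:
Krt6a and Krt6b: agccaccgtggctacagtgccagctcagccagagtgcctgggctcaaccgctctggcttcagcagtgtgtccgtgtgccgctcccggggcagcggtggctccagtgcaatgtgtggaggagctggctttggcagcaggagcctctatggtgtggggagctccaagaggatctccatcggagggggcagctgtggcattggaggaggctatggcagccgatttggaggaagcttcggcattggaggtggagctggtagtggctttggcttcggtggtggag
Krt14 (ENSMUSG00000045545) and Krt16 (ENSMUSG00000053797) were 82.9% identical and shared a 134-base run in exon 1 (Krt14 chr11:100207017-100207150, Krt16 chr11:100248476-100248609), shown because Krt14 is the far more abundant of the pair:
Krt14 and Krt16: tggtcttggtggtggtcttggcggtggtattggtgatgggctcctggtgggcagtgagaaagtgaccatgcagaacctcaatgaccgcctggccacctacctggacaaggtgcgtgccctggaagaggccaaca
Of the 50-base windows of Krt14, 13.3% occurred in Krt16. Krt5 and Krt6a were 75.5% identical with a 140-base common run, whereas Krt13 and Krt15, next to each other on the chromosome, were 71.9% identical with a longest run of 28 bases. Krt4 was at most 67.5% and Krt78 at most 32.7% identical to another type II member. The levels of Krt6a, Krt6b and Krt16 are therefore uncertain to the extent that the authors' counting split or dropped shared reads, a step the labels do not describe. Krt6a also overlaps an annotated antisense gene, Gm49428, over 1633 bases, and no label says whether the counting used strand.

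Between genes, levels were compared per length, as FPKM, which divides the count by gene length and library total. In WT, Krt13 stood at 8718 ± 354 FPKM (SD, n = 3) and Krt4 at 5336 ± 192, above Krt17 (1218 ± 53.6), Krt14 (1115 ± 158), Krt6a (787 ± 71.4) and Krt15 (170.0 ± 18.3). Krt6b (36.5 ± 2.15), Krt16 (22.8 ± 2.18) and Krt78 (0.267 ± 0.0982) were lowest. Krt17 and Krt14 were the only neighbours in this order of 9 whose libraries overlapped in WT.

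**Figure D1:**
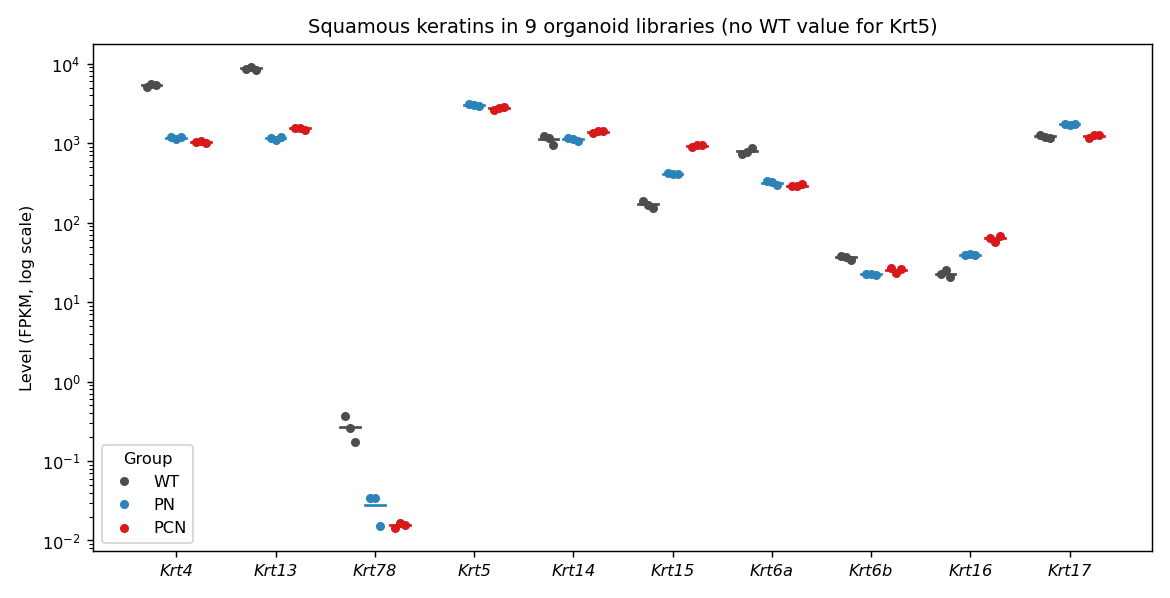
Level of each keratin (FPKM, log scale) in every library, coloured by group (WT, PN, PCN; 3 points each), with a bar at the group mean. Krt13 and Krt4 sit at 8718 and 5336 FPKM in WT and between 1034 and 1533 FPKM on average in PN and PCN, while Krt15 stands highest in PCN.

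In PN, where Krt5 could be ranked too, it stood first at 3017 ± 104 FPKM. Among the 9 keratins ranked in every group, Krt17 led in PN at 1728 ± 34.7. Krt4 (1172 ± 35.1), Krt13 (1152 ± 43.7) and Krt14 (1118 ± 46.3) came next, and each of these overlapped its neighbour. Below them stood Krt15 (414 ± 8.99), Krt6a (319 ± 20.7), Krt16 (39.6 ± 0.915), Krt6b (22.4 ± 0.680) and Krt78 (0.0281 ± 0.0110). In PCN no neighbours overlapped, and the order ran from Krt5 (2744 ± 145) through Krt13 (1533 ± 42.4), Krt14 (1384 ± 47.5), Krt17 (1239 ± 58.2), Krt4 (1034 ± 21.96) and Krt15 (931 ± 21.3) to Krt6a (293 ± 10.4). Krt16 (63.6 ± 5.33), Krt6b (25.2 ± 1.98) and Krt78 (0.0156 ± 0.00115) were again lowest. Krt15, the sixth of the 9 keratins in WT at 170.0 FPKM, thus stood just below Krt4 in PCN, and Krt16 stood above Krt6b in PN and PCN but below it in WT.

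The summed RNA of the 9 keratins with values everywhere took 3.34% ± 0.0935 (SD, n = 3) of a WT library, 1.09% ± 0.0206 of a PN library and 1.19% ± 0.0210 of a PCN library. Krt5 alone added 0.663% ± 0.0229 in PN and 0.603% ± 0.0319 in PCN. The make-up of the sum was unlike in the 3 groups: on the FPKM scale Krt13 took 50.1% ± 0.573 of it in WT, 19.3% ± 0.457 in PN and 23.6% ± 0.751 in PCN. Krt4 took 30.7% ± 1.07, 19.6% ± 0.319 and 15.9% ± 0.394. Krt17 was the leading keratin of the 9 in PN, with a share of 7.00% ± 0.325 in WT, 29.0% ± 0.618 in PN and 19.0% ± 0.588 in PCN. Krt14 held 6.40% ± 0.827 of the sum in WT, against 18.7% ± 0.768 for PN and 21.3% ± 0.398 for PCN, although its CPM in the PN libraries lay inside the WT range. Krt15 held 0.977% ± 0.101, 6.93% ± 0.0565 and 14.3% ± 0.0820. The share of Krt6a stayed near 5% in all groups (4.53% ± 0.512, 5.35% ± 0.330 and 4.51% ± 0.177).

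**Figure D2:**
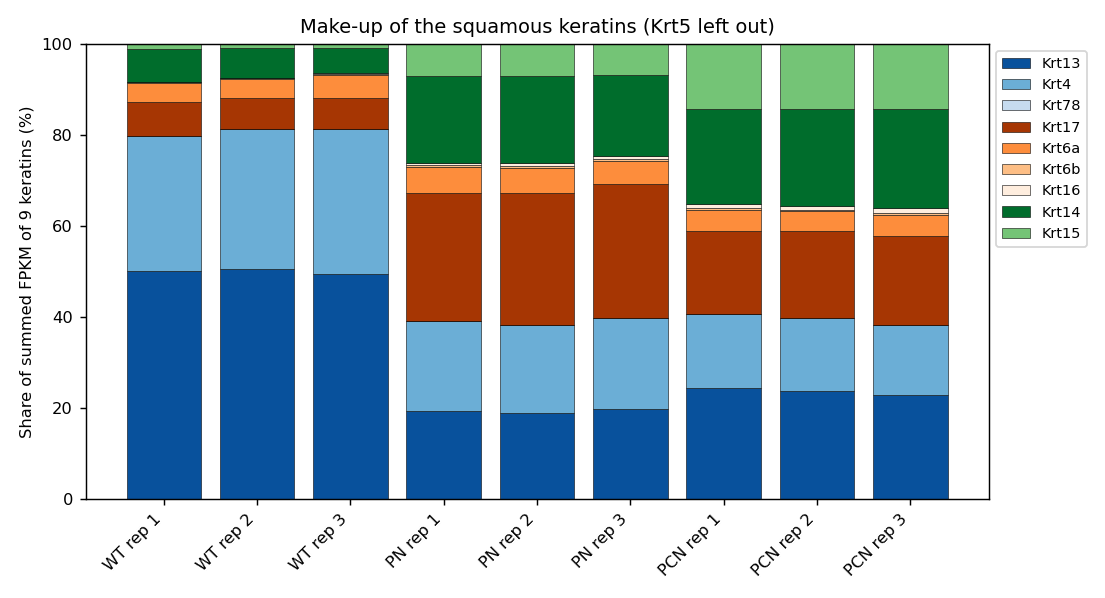
Share (%) of each of 9 keratins in their summed FPKM, 1 stacked bar per library; Krt5 is left out because it has no WT value. Krt13 and Krt4 (blue) fill most of the 3 WT bars, with 50.1% for Krt13, whereas Krt17, Krt14 and Krt15 take larger parts in PN and PCN.

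Each pair of groups was tested with edgeR's quasi-likelihood test on the counts, with Benjamini-Hochberg adjustment over all genes the authors tested and a threshold of 0.05. Calls come only from genes the authors had listed, so nearly every fitted gene passed. In PN against WT 6248 of 6295 did, in PCN against WT 6316 of 6404 and in PCN against PN 3507 of 3546. The shares below are of all genes the authors tested, with unlisted genes, which were not refitted, taken as not passing. The members were drawn from the 8742 genes listed in at least 1 comparison, so these shares are too low a baseline for them. Of those 8742, 6248 passed in PN against WT, 6316 in PCN against WT and 3507 in PCN against PN. The authors listed 6544, 6678 and 3609 of them. The member counts are therefore descriptions and do not test keratins against other genes. PN against WT and PCN against WT share the 3 WT libraries. In PN against WT, 7 of the 10 members passed, 3 higher (Krt15, Krt16, Krt17) and 4 lower (Krt4, Krt13, Krt6a, Krt6b). Of all genes the authors tested, 36.4% passed in this sense (17.6% higher and 18.8% lower). In PCN against WT, 7 passed, 3 higher (Krt14, Krt15, Krt16) and 4 lower (Krt4, Krt13, Krt6a, Krt6b), against 36.5% of all genes (17.5% higher, 19% lower). In PCN against PN, 7 passed, 4 higher (Krt13, Krt14, Krt15, Krt16) and 3 lower (Krt4, Krt5, Krt17), against 23.8% of all genes (12.3% higher, 11.5% lower). The authors' deposited table listed 8 members in each comparison. For PN against WT these were 3 higher and 5 lower, where the table listed 38.1% of all genes (18.2% higher, 19.9% lower). For PCN against WT they were also 3 higher and 5 lower, where it listed 38.6% (18.4% higher, 20.2% lower). For PCN against PN they were 4 higher and 4 lower, where it listed 24.5% (12.6% higher, 11.8% lower). Among all genes listed in these comparisons, the libraries of both groups did not overlap for 98.6%, 98.2% and 97.8%. The extra members are Krt78, too low for the filter on counts used here, in both comparisons with WT, and Krt6a in PCN against PN. In the authors' deposited table the median log2 fold change over the listed members was -0.99 in PN against WT, -0.98 in PCN against WT and 0.09 in PCN against PN, beside -0.27, -0.28 and 0.16 over all listed genes.

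**Figure D3:**
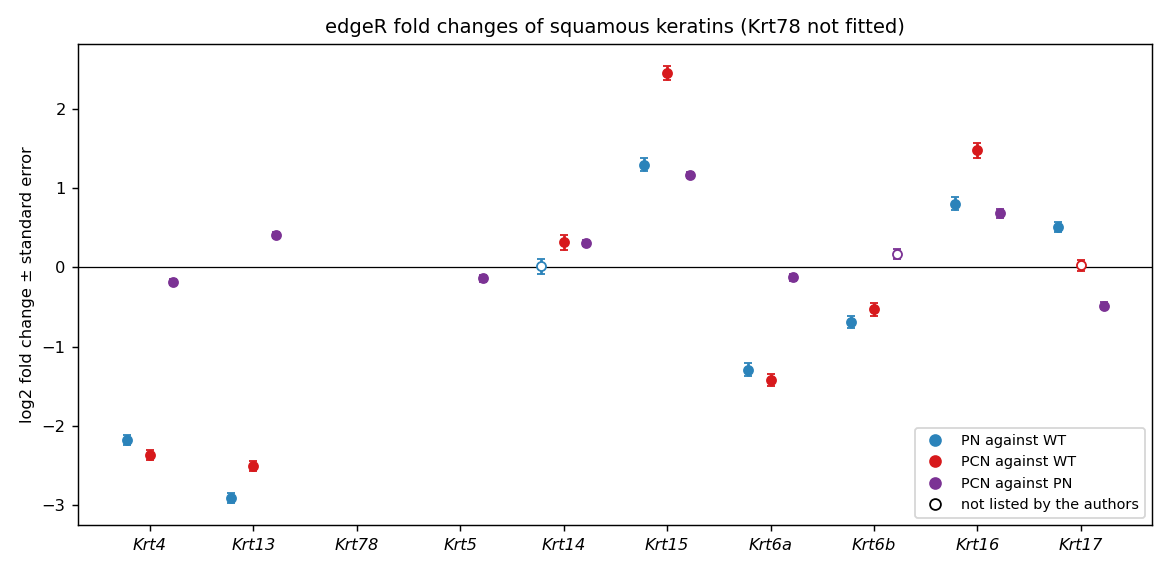
edgeR log2 fold change ± standard error of each keratin for the 3 pairs of groups (3 libraries a group); open circles are members that the authors did not list in that comparison. Krt13 and Krt4 lie lowest against WT (-2.91 and -2.18 in PN), Krt15 highest (2.46 in PCN), and Krt17 lies at 0.52 in PN and 0.03 in PCN against WT.

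The suprabasal pair Krt4 and Krt13 fell in both edited genotypes, and Krt13 had the lowest log2 fold change of the members fitted in each. Krt13 (ENSMUSG00000044041, chr11:100117327-100121566) stood at 15832, 16542 and 15254 CPM in WT libraries 1 to 3, at 2141, 2007 and 2149 in PN and at 2811, 2856 and 2705 in PCN. No PN or PCN library came near a WT library, and all 3 PCN libraries lay above all 3 PN libraries. Against WT, Krt13 was 7.51-fold lower in PN (log2 -2.91 ± 0.06 SE, edgeR adjusted p = 3.09e-12) and 5.67-fold lower in PCN (log2 -2.50 ± 0.06, edgeR adjusted p = 3.43e-12). Between the edited genotypes it was 1.33-fold higher in PCN (log2 0.41 ± 0.04, edgeR adjusted p = 3.33e-09). In bulk RNA, fewer suprabasal cells and less keratin RNA per cell cannot be told apart.

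Its type II partner Krt4 (ENSMUSG00000059668, chr15:101918535-101924735) stood at 10939, 11748 and 11461 CPM in WT, at 2541, 2414 and 2547 in PN and at 2211, 2250.1 and 2157 in PCN. The 3 groups were again separate, but here PCN was the lowest. Krt4 was 4.52-fold lower in PN (log2 -2.18 ± 0.06, edgeR adjusted p = 3.41e-11) and 5.14-fold lower in PCN (log2 -2.36 ± 0.06, edgeR adjusted p = 5.94e-12) than in WT. From PN to PCN it fell a further 1.13-fold (log2 -0.18 ± 0.04, edgeR adjusted p = 0.000778). Krt4 and Krt13, which pair in 1 filament, thus differed in opposite directions between PN and PCN. The FPKM ratio of Krt4 to Krt13 was 0.590, 0.606 and 0.641 in the WT libraries, 1.013, 1.03 and 1.012 in PN and 0.671, 0.673 and 0.681 in PCN. PN was the group in which both chains were near parity, and its libraries did not overlap those of WT or PCN.

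Krt78 (ENSMUSG00000050463, chr15:101946001-101954287), a type II keratin of upper squamous layers, was close to the detection limit. It had 19, 13 and 9 counts in the WT libraries, 2, 2 and 1 in PN and 1, 1 and 1 in PCN, so every WT library was above every edited one. The ratio of summed counts, scaled by the authors' size factors, was 9.59 for WT over PN (exact 95% interval 3.79 to 31.1) and 17.1 for WT over PCN (5.46 to 86.4), where the intervals cover counting error only. The authors' deposited table gave adjusted p-values of 0.00289 and 0.00101. With 41, 5 and 3 counts per group, no difference between PN and PCN was detectable at this depth.

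RefSeq (GRCm38.p6) gave a promoter window at or close to the listed start for 3 of the 10 members, Krt13, Krt5 and Krt78. Krt13 and Krt78 were both lower in the edited genotypes, and Krt5 has no value in WT. The 250 bases before each start are printed 5′ to 3′ on the minus strand. Capitals mark matches, on either strand, to short patterns. TGANTCA is a pattern looser than the AP-1 site, with any base as N, and TGGGAA is the core of the site of RBPJ, the DNA-binding partner of Notch. CACCC is bound by KLF factors (GGGTG on the other strand), and TATAAA is a form of the TATA box. The regions are Krt13 chr11:100121567-100121816, Krt5 chr15:101712906-101713155 and Krt78 chr15:101954288-101954537:
Krt13: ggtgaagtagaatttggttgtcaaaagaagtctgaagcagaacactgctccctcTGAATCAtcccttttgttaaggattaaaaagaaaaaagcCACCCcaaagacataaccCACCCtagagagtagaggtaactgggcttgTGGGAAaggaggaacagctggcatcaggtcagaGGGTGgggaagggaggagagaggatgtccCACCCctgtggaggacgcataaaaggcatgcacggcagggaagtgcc
Krt5: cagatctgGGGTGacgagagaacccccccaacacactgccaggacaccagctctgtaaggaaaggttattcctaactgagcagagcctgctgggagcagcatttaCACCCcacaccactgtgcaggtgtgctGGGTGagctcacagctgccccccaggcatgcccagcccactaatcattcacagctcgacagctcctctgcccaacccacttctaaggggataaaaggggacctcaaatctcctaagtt
Krt78: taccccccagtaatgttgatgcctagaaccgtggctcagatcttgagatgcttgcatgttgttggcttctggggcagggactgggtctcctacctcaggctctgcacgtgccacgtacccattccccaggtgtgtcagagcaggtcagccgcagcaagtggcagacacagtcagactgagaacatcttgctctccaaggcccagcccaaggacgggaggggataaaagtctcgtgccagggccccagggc
Krt13 was the only member of the 3 with a TGANTCA match, TGAATCA at position -196 from the start, and with a TGGGAA match, at -109. It held CACCC at -157, -139 and -47 and its reverse at -76. Krt5 held CACCC matches alone, at -145 and, on the other strand, at -242 and -118, with a further match just after the start, and Krt78 held no match. None of the 3 windows held TATAAA exactly, but all 3 printed sequences hold the similar letters ATAAAAG, which were not among the patterns searched. Among all 32851 windows of 300 bases in the table, 7.81% held TGANTCA, 25.6% TGGGAA, 57.5% CACCC and 13.6% TATAAA. The matches describe the letters only.

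The basal keratins took different courses: Krt15 rose in both edited genotypes and most in PCN, Krt14 was higher in PCN than in either other group, and Krt5 was slightly lower in PCN than in PN. Krt15 (ENSMUSG00000054146, chr11:100131758-100135928) stood at 334, 297 and 269.8 CPM in WT, at 749, 718 and 726 in PN and at 1601, 1671 and 1660.0 in PCN. The groups formed 3 separate steps. Krt15 was 2.45-fold higher in PN than in WT (log2 1.29 ± 0.08, edgeR adjusted p = 5.24e-08), 5.49-fold higher in PCN than in WT (log2 2.46 ± 0.09, edgeR adjusted p = 6.98e-11) and 2.25-fold higher in PCN than in PN (log2 1.17 ± 0.04, edgeR adjusted p = 3.28e-19). The FPKM ratio of Krt15 to Krt14 was 0.153 ± 0.00876 (SD, n = 3) for WT, 0.370 ± 0.0128 for PN and 0.672 ± 0.00878 for PCN.

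Krt14 (chr11:100203162-100207548), the type I chain of the basal pair, stood at 2193, 2035 and 1651 CPM in WT, at 2036, 1982 and 1877 in PN and at 2337, 2476 and 2486 in PCN. The PN libraries lay inside the WT range, and all 3 PCN libraries were above both groups. The authors did not list it for PN against WT, where the log2 fold change was 0.01 ± 0.09 (edgeR unadjusted p = 0.877). Krt14 was 1.25-fold higher in PCN than in WT (log2 0.32 ± 0.09, edgeR adjusted p = 0.0166) and 1.24-fold higher than in PN (log2 0.31 ± 0.04, edgeR adjusted p = 1.13e-06). The call against WT was lost without PCN replicate 2 (edgeR adjusted p = 0.069) or PCN replicate 3 (edgeR adjusted p = 0.0632), over a range of 0.0022 to 0.069 across the alternatives. WT replicate 3, at 1651 CPM, was the low library of its group, and without it the log2 fold change was 0.21 (edgeR adjusted p = 0.0108).

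Krt5 (ENSMUSG00000061527, chr15:101707070-101712898), the type II chain of the basal pair, stood at 6829, 6677 and 6379.7 CPM in PN and at 5670.3, 6132 and 6284 in PCN. All PCN libraries were below all PN libraries, but the gap between the groups was narrow. The difference was 1.1-fold (log2 -0.14 ± 0.04, edgeR adjusted p = 0.0162). It lost the call without PN replicate 1 (edgeR adjusted p = 0.112), PN replicate 2 (edgeR adjusted p = 0.0925) or PCN replicate 1 (edgeR adjusted p = 0.151), over a range of 0.00391 to 0.151 across the alternatives. With Krt14 higher and Krt5 lower, the FPKM ratio of Krt5 to Krt14 was 2.70 ± 0.0188 in PN and 1.98 ± 0.0403 in PCN.

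The stress and wound keratins did not move as a block. The type II members Krt6a and Krt6b fell in both edited genotypes, while the type I members that partner them, Krt16 and Krt17, rose in PN, and Krt16 was higher still in PCN. Krt6a (chr15:101689910-101694307) stood at 1766, 1847 and 2097 CPM in WT, at 819, 779 and 719 in PN and at 697, 690.5 and 737 in PCN. Every WT library was above every edited one, and the PN and PCN ranges overlapped. Krt6a was 2.45-fold lower in PN (log2 -1.29 ± 0.08, edgeR adjusted p = 4.51e-08) and 2.68-fold lower in PCN (log2 -1.42 ± 0.08, edgeR adjusted p = 6.63e-09) than in WT. Between PCN and PN its log2 difference of -0.13 ± 0.05 missed the threshold (edgeR adjusted p = 0.0509), while the authors' deposited table listed it with an adjusted p of 0.0492. That value passed without PN replicate 3 (edgeR adjusted p = 0.0054) or PCN replicate 3 (edgeR adjusted p = 0.0187) and ranged from 0.0054 to 0.493 over the alternatives.

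Krt6b (chr15:101676023-101680287), the less abundant copy, stood at 84.8, 83.7 and 76.0 CPM in WT, at 51.1, 50.9 and 48.4 in PN and at 59.6, 51.3 and 58.0 in PCN. WT was above both edited groups without overlap. How far reads of the near-identical and more abundant Krt6a enter these counts was not tested. Krt6b was 1.61-fold lower in PN (log2 -0.69 ± 0.08, edgeR adjusted p = 1.07e-05) and 1.44-fold lower in PCN (log2 -0.53 ± 0.09, edgeR adjusted p = 0.00019), smaller log2 changes than those of Krt6a. It was not listed for PCN against PN, where the log2 fold change was 0.17 ± 0.07 (edgeR unadjusted p = 0.0158). The FPKM ratio of Krt6b to Krt6a was 0.0467 ± 0.00668 in WT, 0.0703 ± 0.00267 in PN and 0.0860 ± 0.00616 in PCN. The summed counts of both genes, of which Krt6a makes up nearly all and which therefore say little about Krt6b, gave log2 -1.26 ± 0.08 in PN (edgeR adjusted p = 4.72e-08) and -1.37 ± 0.08 in PCN (edgeR adjusted p = 7.5e-09), with -0.11 ± 0.05 between PCN and PN (edgeR adjusted p = 0.124).

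Krt16 (chr11:100246091-100248902) stood at 35.4, 39.3 and 32.5 CPM in WT, at 60.6, 63.4 and 62.1 in PN and at 101, 90.5 and 107 in PCN. As for Krt15, the groups formed 3 separate steps with PCN highest. Krt16 was 1.75-fold higher in PN (log2 0.81 ± 0.09, edgeR adjusted p = 8e-06) and 2.79-fold higher in PCN (log2 1.48 ± 0.09, edgeR adjusted p = 2.79e-08) than in WT, and 1.60-fold higher in PCN than in PN (log2 0.68 ± 0.06, edgeR adjusted p = 3.6e-10). It remained a minor keratin beside Krt17, at 63.6 ± 5.33 against 1239 ± 58.2 FPKM in PCN.

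Krt17 (ENSMUSG00000035557, chr11:100256217-100261029) was higher in PN alone. It stood at 1979, 1876 and 1815 CPM in WT, at 2666, 2636 and 2740.5 in PN and at 1817, 1967 and 1979 in PCN. The PN libraries were above all others, while WT and PCN overlapped. Krt17 was 1.43-fold higher in PN than in WT (log2 0.52 ± 0.06, edgeR adjusted p = 2.3e-05) and 1.40-fold lower in PCN than in PN (log2 -0.48 ± 0.04, edgeR adjusted p = 1.89e-10). Its log2 difference between PCN and WT was 0.03 ± 0.07 (edgeR unadjusted p = 0.695) and it was not listed there. The FPKM ratio of Krt16 to Krt17 was 0.0188 ± 0.00175 in WT, 0.0229 ± 0.000790 in PN and 0.0514 ± 0.00512 in PCN. Summed with its relatives Krt14 and Krt16, Krt17 gave log2 0.29 ± 0.07 in PN against WT (edgeR adjusted p = 0.00622), 0.20 ± 0.08 in PCN against WT (edgeR adjusted p = 0.0538) and -0.08 ± 0.04 in PCN against PN (edgeR adjusted p = 0.224).

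Sums over the members set the layers against each other in part. The basal sum leaves out Krt5, which has no WT value but was the highest member in PN (3017 FPKM) and PCN (2744 FPKM). The ratios to it therefore do not cover all basal keratin RNA. The FPKM sum of Krt4, Krt13 and Krt78 over that of Krt14 and Krt15 was 9.62, 11.01 and 12.6 in the WT libraries, 1.496, 1.46 and 1.61 in PN and 1.15, 1.11 and 1.06 in PCN. WT was far above the others, and PCN was below PN in every library. The sum of the 4 stress keratins over the same basal sum was 1.63 ± 0.252 in WT, 1.38 ± 0.0522 in PN and 0.700 ± 0.0101 in PCN. The sum of type II over type I chains, which needs Krt5, was 1.02 ± 0.0247 in PN and 0.795 ± 0.0137 in PCN. These ratios are descriptions and were not tested.

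The type I members lie in the keratin cluster of chromosome 11 and the type II members in that of chromosome 15. Some neighbours moved in the same direction and others did not. Krt13 and Krt15 lie 10191 bases apart with no annotated gene between them, yet Krt13 fell and Krt15 rose in both edited genotypes. Krt16 and Krt17 lie 7314 bases apart, and both rose in PN, but in PCN Krt16 rose and Krt17 was not listed. On chromosome 15, Krt6b and Krt6a lie 9622 bases apart and both fell against WT. Krt4 and Krt78, 21265 bases apart with 1 annotated gene between, were both lower in the edited genotypes. Krt5 lies 12762 bases from Krt6a, and Krt4 lies 205636 bases from Krt5, with 10 annotated genes between.

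**Figure D4:**
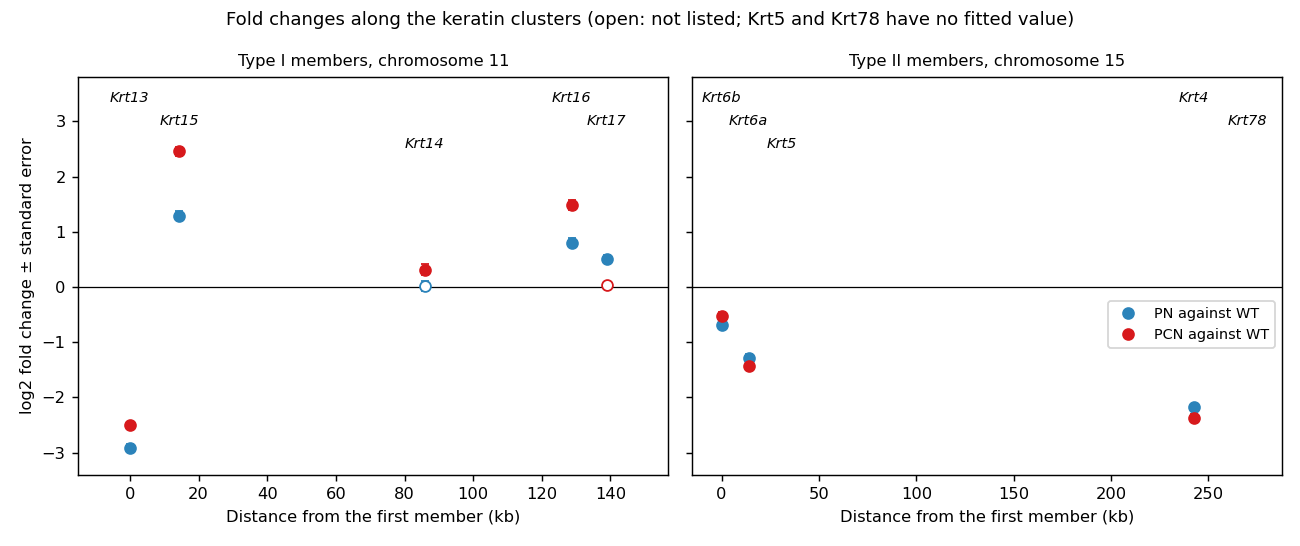
edgeR log2 fold change ± standard error against distance (kb) from the first member along each cluster, for PN and PCN against WT; open circles are members the authors did not list, and Krt5 and Krt78 have no fitted value. The neighbours Krt13 and Krt15 lie on opposite sides of 0 in both comparisons.

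A gene has values here only if it was called in at least 1 comparison, so the counts of the lists below are read over the whole list. The lists were chosen with earlier results of these data known. Their counts and medians therefore describe the listed genes and are no independent support for any pattern. Beside them, the authors listed 18.2% of all genes as higher and 19.9% as lower in PN against WT, and 18.4% and 20.2% in PCN against WT. Of 28 other keratins, 11 had values. In PN against WT 9 of the 28 were listed, 3 higher and 6 lower, with a median log2 of -1.60 over those listed, and in PCN against WT 10 were listed, 3 higher and 7 lower, with a median of -2.20. Of the keratins of simple epithelium, Krt7, Krt18, Krt19 and Krt20 fell in both edited genotypes, Krt18 for example with 94.4 ± 6.82, 36.6 ± 0.684 and 19.8 ± 0.995 CPM in WT, PN and PCN. Krt8, the type II partner of Krt18, went the other way at a low level: it was listed for PCN against WT alone, at 1.22 ± 0.589 CPM in WT and 3.05 ± 0.815 in PCN (log2 1.31 ± 0.37, edgeR adjusted p = 0.0109). Krt80 fell from 44.1 ± 4.37 CPM to 2.23 ± 0.724 and 2.13 ± 0.515 CPM in the edited groups. Krt79, known from the mouse hair follicle, rose from 0.355 ± 0.274 CPM to 8.55 ± 1.43 and 6.86 ± 0.852. Krt76, a keratin of the oral lining, was at 18.1 ± 2.02, 65.9 ± 4.01 and 36.7 ± 1.30 CPM, so it was highest in PN, as Krt17 was. Krt23 was also highest in PN, at 5.26 ± 0.928, 27.8 ± 3.31 and 2.23 ± 0.834 CPM.

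Keratin filaments are tied to the membrane at desmosomes and hemidesmosomes, and 19 of 21 genes of these anchors had values. By the authors' deposited table, 16 of the 21 were listed lower and 2 higher in PN against WT (median log2 -1.02 over those listed), where 19.9% of all genes were lower and 18.2% higher. In PCN against WT, 12 of 21 were lower and 4 higher (median -0.78), where 20.2% and 18.4% of all genes were. In PCN against PN, 9 of 21 were higher and 1 lower (median 0.24), where 12.6% of all genes were higher and 11.8% lower. The desmosomal cadherin Dsc2 (915 ± 148, 146 ± 5.32 and 173 ± 11.8 CPM) and the plakins that bind keratins in suprabasal cells, Ppl (1204 ± 97.0, 236 ± 3.88 and 204 ± 12.5 CPM) and Evpl (654 ± 49.5, 146 ± 7.12 and 150.1 ± 5.04 CPM), fell with Krt4 and Krt13. Pkp2, a plaque protein, was low throughout (7.75 ± 1.01, 2.25 ± 0.9495 and 3.21 ± 0.367 CPM).

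A list of 28 squamous transcription factors also held Notch1, the gene targeted in both edited genotypes, and Notch3, which are receptors. Both were listed lower in PN and PCN against WT, so the counts include the edited gene. Of the 28, 22 had values, and 16 were listed lower in each edited genotype against WT (19.9% of all genes in PN, 20.2% in PCN). Listed higher were 2 in PN and 4 in PCN (18.2% and 18.4% of all genes). Medians over those listed were -1.08 and -1.04. In PCN against PN, 8 were higher and 3 lower (median 0.42), where 12.6% and 11.8% of all genes were. Zfp750 and Grhl3, factors of terminal epidermal differentiation, were at 97.5 ± 7.15, 7.37 ± 0.772 and 12.4 ± 0.639 CPM and at 119 ± 10.1, 19.9 ± 1.72 and 29.7 ± 2.21 CPM. Elf3 (231 ± 6.78, 22.1 ± 0.736 and 39.2 ± 1.39 CPM) and Prdm1 (21.6 ± 2.45, 0.895 ± 0.256 and 1.65 ± 0.269 CPM) were also lowest in PN, as Krt13 was. Prdm1, with only 20, 12 and 15 counts in the PN libraries, was not listed for PCN against PN. Its log2 fold change there was 0.88 ± 0.34 (edgeR unadjusted p = 0.0138). Of 20 other suprabasal genes 17 had values. In PN 13 of the 20 were listed lower and 1 higher (median -2.78), against 19.9% and 18.2% of all genes, and in PCN 15 were lower and 1 higher (median -2.53), against 20.2% and 18.4%. Among them, Emp1, a membrane protein, was at 3786 ± 257, 219 ± 9.36 and 244 ± 2.76 CPM and Ecm1 at 1680 ± 110.2, 77.1 ± 3.37 and 78.3 ± 2.32 CPM. All medians are of the authors' log2 fold changes, whose median over all listed genes was -0.27 in PN and -0.28 in PCN.

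**Figure D5:**
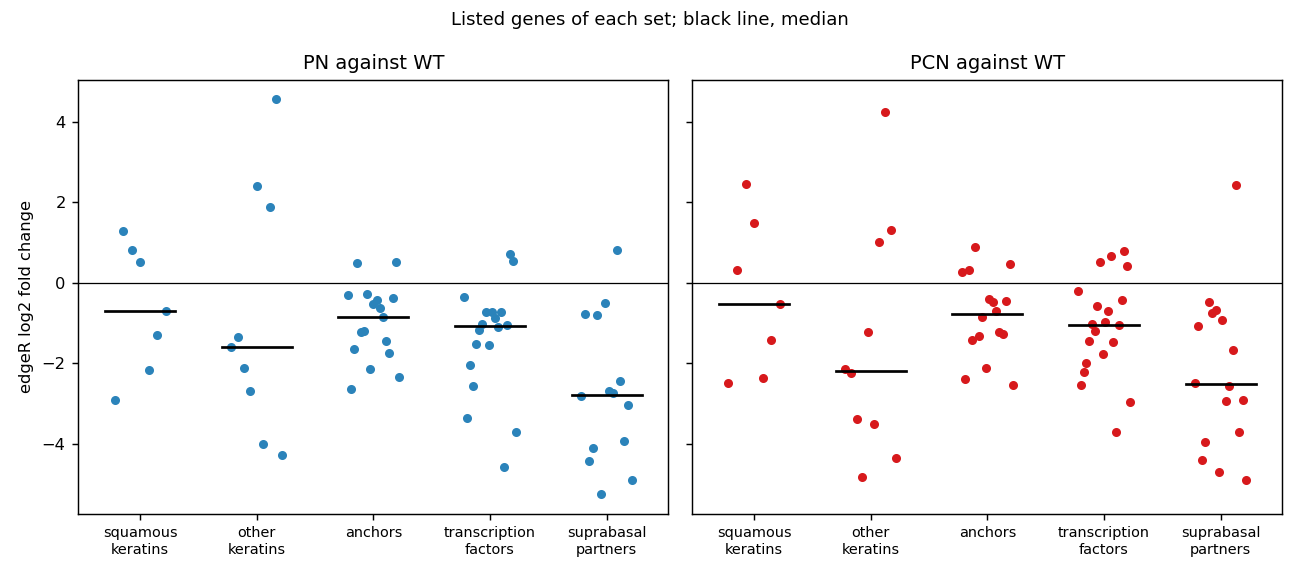
edgeR log2 fold change of the listed genes with a fit in 5 gene sets, for PN against WT (left) and PCN against WT (right), with the median as a black line. Krt78, listed but not fitted, is not drawn, and the transcription factor set includes Notch1 and Notch3. The sets were chosen with earlier results of these data known. The suprabasal partners have the lowest median in both panels, and the fitted squamous keratins spread from -2.91 to 1.29 in PN.

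The genes with profiles most like 3 of the members were found over 9 libraries among 5621 genes with counts in all of them and a mean of at least 5 CPM, by the root mean square difference of centred log2(CPM + 1). Closest to Krt13 was Anxa1, an annexin that binds membrane phospholipids, at a difference of 0.0819 (2724, 342 and 453 CPM in WT, PN and PCN), then Cdkn1a, the cell cycle inhibitor p21, at 0.110 (186, 25.9 and 34.4 CPM) and Aldh3b2 at 0.115 (69.9, 9.44 and 11.2 CPM). All 3 were lowest in PN and slightly higher in PCN, as Krt13 was. Cdkn1a is a direct target of p53, the product of Trp53. Closest to Krt15 were the transcription factor Sox7 at 0.178 (22.9, 44.1 and 124 CPM), Lpl, a lipase, at 0.181 (4.36, 9.81 and 23.9 CPM) and Inhbb at 0.191 (1.18, 4.65 and 9.29 CPM). These matches to the stepwise rise of Krt15 were looser than those to Krt13. Closest to Krt6a were Slc25a24 at 0.0746 (112, 43.8 and 43.1 CPM), Spata6 at 0.0748 (21.9, 9.14 and 7.999 CPM) and Dgka at 0.0887 (290.6, 112 and 112 CPM), which were low to a like extent in PN and PCN.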

How the data were processed

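Bulk RNA-seq of 9 libraries (3 per genotype) was deposited as 3 tables of called genes, 1 for each comparison. The counts are the authors' reads per gene, per the file headers. To get the normalized signal, the authors divided each count by a size factor per library and pair. The deposited FPKM rest on counts, gene length and library total. Each deposited table also gives a log2 fold change, a p-value and an adjusted p-value. The submitters' processing notes name CASAVA, DESeq, GRCm38 and mm10, without roles; neither the aligner nor the counter is given in the sources used here.

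Library totals were recovered from counts, FPKM and length, and the number of genes tested from the adjusted p-values (17165 and 17300 for PN and PCN against WT, 14758 for PCN against PN; this holds exactly for 92%, 92.7% and 91.2% of listed genes). Each pair was fitted by the robust quasi-likelihood F test of edgeR 4.0.16 (R 4.3.3) after filterByExpr, with offsets from the recovered totals and deposited size factors, and Benjamini-Hochberg adjustment over the recovered number at 0.05. Standard errors are the fold change over the square root of F. Members not listed in a pair but with counts from both other tables were fitted in addition, never counting as called. A table of already called genes makes calls by a refit dependent on the first selection. CPM is the count over the recovered total.

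Members and gene lists were chosen with earlier results of these data known. Genes named outside the members follow a rule: the 4 genes per list with the largest absolute log2 fold change against WT among those listed with at least 5 CPM, any other keratin with values, marker genes, targeted genes, and 3 nearest profiles each for Krt13, Krt15 and Krt6a; Trp63, Itga6, Pax9, Cdh1, Cd68 and Esam come from the marker lists, and Mal and Tgm3, also picked by the rule, are left out. Protein identity was planned, but coding sequences from GENCODE M21 were compared instead with Biopython 1.88. Replicate numbers come from the titles, which state no pairing, and the main fits used none. Same-numbered WT and PN libraries deviated together weakly (correlations 0.281, 0.117 and 0.294). A fit with the number as a block was therefore run as an alternative, and it left 7 members called in PN against WT. The fitting code was tested on simulated data.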

Additional observations from a re-analysis of the deposited data

How the results depend on the processing

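Of 273 values of single members under the alternatives, 263 kept direction and side of the threshold, 6 lost the call, 4 gained it and 0 reversed; the lost and gained calls were those of Krt14 in PCN against WT and of Krt5 and Krt6a in PCN against PN. Counting related keratins as sums leaves fewer units, and 4 were called in PCN against WT and 4 in PCN against PN, and 5 in PN against WT. Without each replicate in turn, the members called were 8 in every case for PN against WT (Krt78 then passed the count filter), 7 to 8 in PCN against WT and 6 to 8 in PCN against PN. With DESeq2 1.42.0 they were 8, 8 and 7, without a count filter 8, 8 and 8, with TMM 7, 7 and 8 and with totals alone 7, 7 and 7. A joint fit of 9 libraries gave 8, 8 and 6, but it could not include Krt5, which has no WT counts.

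The replicate block gave 7 members in PN against WT, 7 in PCN against WT and 6 in PCN against PN, where Krt5 had an adjusted p of 0.0974 by edgeR. In the last 2 comparisons same-numbered libraries did not deviate together, with correlations from -0.34 to -0.128. Krt6a in PCN against PN passed with TMM (edgeR adjusted p = 0.0211) and without the filter (edgeR adjusted p = 0.0472). Depth limits Krt78, with at most 19 counts per library, and the tables limit Krt5 to PN and PCN.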
